A study of Mus musculus with 32 samples.

Results

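The Morc1-linked region of mouse chromosome 16 is described here by its H3K9me3 ChIP-seq peaks in male germ cells. Its members were all peaks on chromosome 16 with a midpoint from 38000000 to 59000000, a span of 21 Mb that reaches about 10 Mb to each side of Morc1, and they were chosen by position alone. The region held 4840 of the 611602 peaks in 8 peak lists. The samples were male germ cells taken from the testes of Mvh-Venus transgenic mice, which carry a fluorescent reporter of the germ line, before birth on the embryonic days E13.5 and E16.5 and after birth on the postnatal days P0 and P3. At each stage the control animals were heterozygous, Morc1 (+/-), called het here, and the mutants were Morc1 (-/-), called KO. A wild-type group was not among the samples, so every control also carried 1 mutant allele. Of 32 samples, 16 were H3K9me3 precipitations, 2 per genotype and stage, and 1 list of peak positions stood for each pair. How the Morc1 allele was made, the strain of its flanking sequence and the number of animals are not given in the sources used here. Peak positions carry no expression, so neither the germ cell label nor the loss of Morc1 could be checked in these data.

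H3K9me3 is a histone mark of silent chromatin that is read by HP1 proteins, and in germ cells it is known for covering retrotransposons and tandem gene families. MORC1 is a nuclear ATPase of the microrchidia family that is needed for transposon silencing and for fertility in male mice. Sequence close to a targeted allele is inherited with it, so a KO animal can be homozygous over a long stretch around the gene for DNA of the strain in which the allele was made, while a het animal carries that stretch on 1 chromosome only. A difference between het and KO near the gene can therefore come with the absence of the protein or with the linked DNA, and with these samples the 2 cannot be told apart.

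The only DNA of the region available for reading was that of gene promoters, and 6 are printed because a peak lay over them in a way the later values return to. Each is the 250 bases before the gene start from RefSeq (GRCm38.p6), written 5′ to 3′ on the strand of the gene, with every CG in capitals. Cd200r2 lies at chr16:44866847-44867096 (plus strand), Olfr175 at chr16:58826762-58827011 (minus strand), Olfr178 at chr16:58890219-58890468 (minus strand) and Olfr181 at chr16:58928645-58928894 (minus strand), and these 4 were covered by peaks in all 8 lists. Impg2, at chr16:56204063-56204312 (plus strand), was covered whole in het on P0 and P3 and in part in KO on P3. Adgrg7, at chr16:56795859-56796108 (minus strand), was covered in KO on P0 and P3 and in no other list.
Cd200r2: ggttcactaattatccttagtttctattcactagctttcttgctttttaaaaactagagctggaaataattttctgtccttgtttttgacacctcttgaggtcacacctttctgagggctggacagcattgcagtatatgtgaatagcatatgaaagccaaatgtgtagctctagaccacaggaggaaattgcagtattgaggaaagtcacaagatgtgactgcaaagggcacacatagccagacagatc
Olfr175: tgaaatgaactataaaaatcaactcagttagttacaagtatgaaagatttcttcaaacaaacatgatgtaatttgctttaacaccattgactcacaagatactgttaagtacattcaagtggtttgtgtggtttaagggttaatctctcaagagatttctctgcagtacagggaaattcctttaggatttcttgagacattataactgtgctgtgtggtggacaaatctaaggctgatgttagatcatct
Olfr178: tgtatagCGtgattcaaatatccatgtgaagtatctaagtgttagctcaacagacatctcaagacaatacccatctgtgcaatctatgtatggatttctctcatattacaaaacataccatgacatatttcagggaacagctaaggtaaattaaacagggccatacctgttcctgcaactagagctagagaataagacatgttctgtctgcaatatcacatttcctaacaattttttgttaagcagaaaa
Olfr181: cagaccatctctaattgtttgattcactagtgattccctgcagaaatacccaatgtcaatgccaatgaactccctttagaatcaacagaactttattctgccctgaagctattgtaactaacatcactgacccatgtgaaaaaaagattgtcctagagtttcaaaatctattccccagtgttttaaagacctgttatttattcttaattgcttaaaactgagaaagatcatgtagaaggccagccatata
Impg2: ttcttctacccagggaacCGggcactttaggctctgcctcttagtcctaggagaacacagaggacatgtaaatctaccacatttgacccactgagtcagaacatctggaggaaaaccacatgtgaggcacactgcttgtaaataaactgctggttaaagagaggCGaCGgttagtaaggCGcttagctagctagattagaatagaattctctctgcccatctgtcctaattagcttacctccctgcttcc
Adgrg7: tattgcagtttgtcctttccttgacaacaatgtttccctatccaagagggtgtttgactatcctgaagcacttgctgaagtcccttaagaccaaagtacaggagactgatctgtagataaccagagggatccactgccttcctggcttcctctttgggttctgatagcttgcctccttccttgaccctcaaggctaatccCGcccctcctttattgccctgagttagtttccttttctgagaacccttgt
CG, which reads the same on both strands, is the site of DNA methylation and was the only motif searched. It occurred 0 times in Cd200r2, Olfr175 and Olfr181, 1 time in Olfr178 and Adgrg7, and 4 times in Impg2. Of all 31396 autosomal promoters in the table, 92.4% held at least 1 CG in the same 250 bases, with a median of 6.

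Promoters of the region were mostly outside peaks. The table held 166 promoter windows of 142 genes here, each from 250 bases before to 50 bases after the gene start, and 22 windows of 20 genes were touched by a peak in at least 1 list. The median number of CG was 1.00 in the 22 touched promoters and 4.50 in the other 144. In het, 4.82% of the windows were touched at E13.5, 7.23% at E16.5, 10.8% on P0 and 5.42% on P3, and over all autosomes the shares were 4.40%, 5.31%, 5.74% and 5.36%. In KO the shares were 5.42%, 6.63%, 8.43% and 7.23% in the region and 5.93%, 4.91%, 6.60% and 6.33% over the autosomes. Most of the promoters covered in all 8 lists belonged to olfactory receptor genes, which encode odorant receptors and lie in clusters.

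Peaks of the region became more numerous from E13.5 to P0 in both genotypes. In het there were 374 peaks at E13.5, 640 at E16.5, 738 on P0 and 652 on P3. In KO there were 408, 592, 774 and 662 at the same stages. KO thus had more peaks than het at E13.5, P0 and P3, and fewer at E16.5, which was also the order of the whole lists, where het had 52628, 78816, 86812 and 81140 peaks and KO 57803, 74642, 93523 and 86238. The median peak length lay between 2044 bp (E13.5 KO) and 2664 bp (P3 KO), and 1001 bp was the most common length in every list. Read depth was unknown and a list carries no replicate spread, so no test between genotypes was made. The cells were studied in bulk, so a mark in fewer cells and a weaker mark per cell cannot be told apart.

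The share of the region under peaks grew steeply before birth. In het, peaks covered 4.98% of its base pairs at E13.5, 11.6% at E16.5, 12.9% on P0 and 11% on P3. In KO they covered 5.61%, 10.6%, 12.6% and 11.5%. On the other 18 autosomes the het lists covered 6.63%, 12.1%, 12.8% and 11.5% and the KO lists 7.54%, 11.1%, 13.4% and 12.6%, so the region started lower and had closed most of the gap by E16.5. From E13.5 to E16.5 the covered length of the region grew 2.32-fold in het and 1.90-fold in KO, against 1.83-fold and 1.47-fold on the other autosomes. Of 103 other autosomal windows of 21 Mb, 13 grew more than the region in het (range 1.12 to 2.84, median 1.89) and 10 in KO (median 1.52).

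Turnover between stages was compared with the other autosomes in the same way. Of the E16.5 het peaks of the region, 322 of 640 had no base pair in common with an E13.5 het peak, a share of 50.3% (95% Wilson interval 46.4 to 54.2), against 45.7% on the other autosomes. In KO the new share was 42.1% (249 of 592) against 38.2%. Few of the E13.5 peaks were gone at E16.5. In het 24 of 374 were lost (6.42%, 4.35 to 9.37) against 13.4% on the other autosomes, and in KO 50 of 408 (12.3%, 9.42 to 15.8) against 18.1%. From E16.5 to P0 the losses were 22.3% in het (19.3 to 25.7) against 21.8%, and 18.8% in KO (15.8 to 22.1) against 15.6%, and the new shares 32.8% in het against 28.5% and 37.5% in KO against 34.3%. From P0 to P3 the losses were 22.0% in het against 21.3% and 22.9% in KO against 21.1%, but fewer peaks were new than elsewhere. Of P3 het peaks 57 of 652 were new (8.74%, 6.81 to 11.2) against 14.2%, and of P3 KO peaks 67 of 662 (10.1%, 8.05 to 12.7) against 13.7%. These intervals, and all others here, cover counting error only and treat neighbouring peaks as independent, which they are not.

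The region is poorer in genes than the other autosomes, with 115 protein-coding genes or 5.48 per Mb against 8.66 per Mb, but 41.4% of its bases lie in gene bodies against 40.9%. Lsamp alone spans 2197 kb. Its longest peaks lay in a gene-free stretch and at the olfactory receptor genes. Between Nectin3, a cell adhesion gene, and Gm52257, a peak of 44.2 kb was called at E16.5 in KO (chr16:47320987-47365144) and one of 42.7 kb in het (chr16:47322498-47365161). In the same place the longest P3 peaks measured 24.6 kb in het and 25.4 kb in KO. Of the 44.2 kb, peaks covered 10.3 kb in the het list and 18.3 kb in the KO list of E13.5, and 36.1 and 35.4 kb on P0. The domain was thus present in both genotypes at all 4 stages and was most extended at E16.5.

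At the olfactory receptor genes the longest P0 peaks measured 35.0 kb in het (chr16:58798615-58833616) and 36.1 kb in KO (chr16:58798892-58834952), and both lay over Olfr175. The longest E13.5 peaks were 16.1 kb in het over Olfr175 (chr16:58818593-58834725) and 26.2 kb in KO over Olfr180, Olfr181 and Olfr183 (chr16:58911752-58937965). Of that 26.2 kb the E13.5 het list covered 24.2 kb as well, so most of that stretch was called in both genotypes.

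Peaks called in 1 genotype and not in the other at the same stage are called het-only and KO-only below: they shared not even 1 bp with a peak of the other list. At E13.5 43 of 374 het peaks in the region were het-only, or 11.5% (8.65 to 15.1), where 11.3% of the whole het list was. At E16.5 the het-only share was 14.2% (91 of 640, 11.7 to 17.1) against 13.4% of the whole list. At P0 it was 16.8% (124 of 738, 14.3 to 19.7) against 12.0%, and on P3 16.1% (105 of 652) against 13.9%. The P0 share stood above its background, and at the other 3 stages the interval included the background.

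KO-only shares stayed at the level of the whole lists. They were 19.9% at E13.5 (81 of 408, 16.3 to 24.0) against 21.4% of the whole KO list, and 5.74% at E16.5 (34 of 592, 4.14 to 7.92) against 6.94%. At P0 the share was 19% (147 of 774, 16.4 to 21.9) against 19.4%, and on P3 18.3% (121 of 662, 15.5 to 21.4) against 20.7%. All 4 shares of the region were a little below those of the whole list, and each whole-list share lay within the interval of the region.

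**Figure D1:**
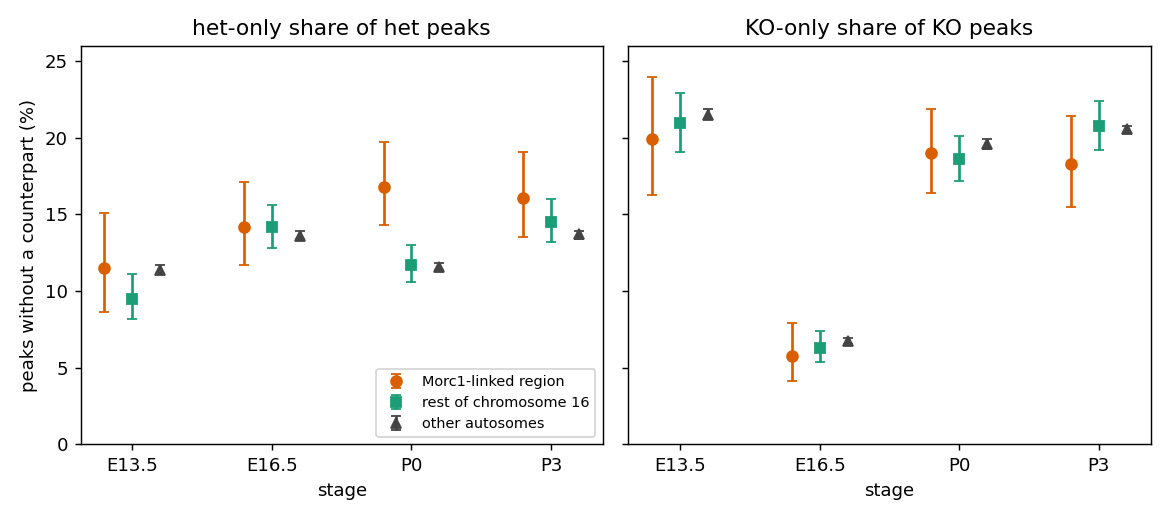
Het-only share of het peaks (left) and KO-only share of KO peaks (right), in percent, at the 4 stages for the Morc1-linked region, the rest of chromosome 16 and the other autosomes, with 95% Wilson intervals as bars. The P0 het-only share of the region, 16.8%, is the point whose interval lies clear of both references, 11.7% and 11.6%.

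The comparison with the rest of chromosome 16 and with the other 18 autosomes gave the size of this difference. At P0 the het-only share was 5.23 percentage points higher in the region than on the other autosomes (95% Newcombe interval 2.70 to 8.11), where it was 11.6%. It was 5.08 points higher than on the rest of chromosome 16 (2.25 to 8.18), where it was 11.7%. That chromosome was not uniform: of the 2 other windows of 21 Mb on it, the one from 66 to 87 Mb had 15.7% on P0 and the one from 3 to 24 Mb 9.18%. At P3 the differences were 2.45 points (-0.183 to 5.48) and 1.59 points (-1.40 to 4.89), at E16.5 0.593 points (-1.91 to 3.52) and 0.0432 points (-2.85 to 3.26), and at E13.5 0.0792 points (-2.78 to 3.72) and 1.99 points (-1.25 to 5.87). For KO-only peaks the difference from the other autosomes was -1.66 points at E13.5 (-5.26 to 2.50), -1.0 at E16.5 (-2.62 to 1.18), -0.616 on P0 (-3.24 to 2.31) and -2.29 on P3 (-5.06 to 0.849). Of the 16 differences, those for KO-only peaks from the rest of chromosome 16 included, only the 2 for het-only peaks on P0 had an interval that left out 0.

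Windows of equal length showed how far such shares vary along the autosomes. Over 103 other windows of 21 Mb the P0 het-only share ran from 5.50% to 16.9% with a median of 11.4%, and 1 window was above the region. At P3 it ran from 6.01% to 18.4% with a median of 13.8%, and 15 windows were above the region, among them the chromosome 16 window from 66 to 87 Mb with 17.8%. At E16.5 36 and at E13.5 49 of the 103 windows were above it. The region thus stood at the upper edge of the autosomes on P0, in the upper part on P3, and in the middle earlier.

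The covered length told the same for P0 and P3. The ratio of KO to het covered length in the region was 1.13 at E13.5 (1177 against 1045 kb), 0.920 at E16.5 (2233 against 2426 kb), 0.972 on P0 (2637 against 2713 kb) and 1.04 on P3 (2409 against 2308 kb). On the other autosomes together it was 1.14, 0.918, 1.05 and 1.09. Over the 18 autosomes taken singly it ran from 1.02 to 1.12 on P0 and from 1.07 to 1.15 on P3, so the region was below each of them at both postnatal stages. Relative to the other autosomes the ratio was 0.990 at E13.5, 1.00 at E16.5, 0.926 on P0 and 0.955 on P3. Of the 103 windows, 10 had a lower ratio than the region on P0 and 20 on P3. The chromosome 16 window from 66 to 87 Mb was among the lower ones on P0, at 0.954, and the one from 3 to 24 Mb had 1.10. The Jaccard index, the base pairs in both lists over those in either, was 0.680, 0.784, 0.695 and 0.668 in the region and 0.715, 0.798, 0.702 and 0.669 on the other autosomes.

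The P0 difference held for peaks in genes and between them. With the midpoint in a protein-coding gene body, 32 of 186 het peaks were het-only (17.2%, 12.5 to 23.3), against 9.30% on the other autosomes. Outside gene bodies it was 92 of 552 (16.7%) against 12.4%. For KO-only peaks on P0 the shares were 26.2% in gene bodies (54 of 206) against 26.8%, and 16.4% outside them (93 of 568) against 16.7%.

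Long peaks without a counterpart were nearly all het-only after birth. Of het peaks of 3 kb or more, 26 of 322 were het-only on P0 (8.07%, 5.57 to 11.6), where 5.96% of such peaks in the whole list were. Of KO peaks of that length 2 of 313 were KO-only (0.639%, 0.175 to 2.30), where 1.29% were. At P3 15 of 284 long het peaks were het-only (5.28%) against 5.34% of the whole list, and 3 of 302 long KO peaks were KO-only (0.993%) against 2.39%. The surplus of het among long unmatched peaks was thus a feature of the whole lists that the region shared. In the embryo long unmatched peaks were rare, as on the other autosomes. At E13.5 they were 0 of 116 het peaks and 2 of 126 KO peaks, where the other autosomes had 0.504% and 1.77%. At E16.5 they were 1 of 267 and 0 of 250, against 0.982% and 0.176%. Upper bounds for the counts of 0 were 3.21% (E13.5 het) and 1.51% (E16.5 KO).

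The longest het-only peak of the region lay on P0 between Nectin3 and Gm52257 and measured 11.8 kb (chr16:47068351-47080130). At P3 7.58 kb of it were called in het (chr16:47069550-47077128, the longest het-only peak of that stage), and the other 6 lists called none of it. It lay 1.46 Mb from the middle of Morc1. The next longest P0 peaks were one of 6.28 kb between Gm4802 and Ift57 (chr16:49557632-49563915), one of 5.58 kb near the first (chr16:47148948-47154524) and one of 5.52 kb between Impg2 and Abi3bp (chr16:56335037-56340557). A peak of 5.50 kb that overlapped Cd200r3, a receptor gene of the CD200 receptor family in myeloid cells, was het-only on P0 and again on P3 (chr16:45056465-45061964). One of 5.04 kb overlapped Trat1, which encodes an adaptor of the T cell receptor (chr16:48805891-48810934), and 1 of 3.02 kb lay in Dzip3, a ubiquitin ligase gene (chr16:48959949-48962965).

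Unmatched peaks were followed to the other stages, in the region and on the other autosomes. Of the 124 het-only P0 peaks, 56 met only het peaks on P3, 0 met only KO peaks, 17 met both and 51 met neither. The shares were 45.2%, 0%, 13.7% and 41.1%, against 42.5%, 4.22%, 11.5% and 41.7% on the other autosomes. Of the 26 with 3 kb or more, 22 met only het peaks (84.6% against 74.6%), 3 met both and 1 met neither. Back at E16.5, 86 of the 124 met no peak in either list (69.4% against 67.5%), 27 met both, 10 only het and 1 only KO. Most het-only P0 peaks were therefore at places without a call at E16.5. Of the 147 KO-only P0 peaks, 29 met only KO peaks on P3, 5 only het, 18 both and 95 neither (64.6% against 53.7%). Followed back to P0, of 105 het-only P3 peaks 60 met only het peaks (57.1% against 42.4%), 26 both, 6 only KO and 13 neither (12.4% against 24.8%). Of 121 KO-only P3 peaks 57 met both (47.1% against 40.2%), 29 only KO, 1 only het and 34 neither. None of these differences from the other autosomes was tested.

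**Figure D2:**
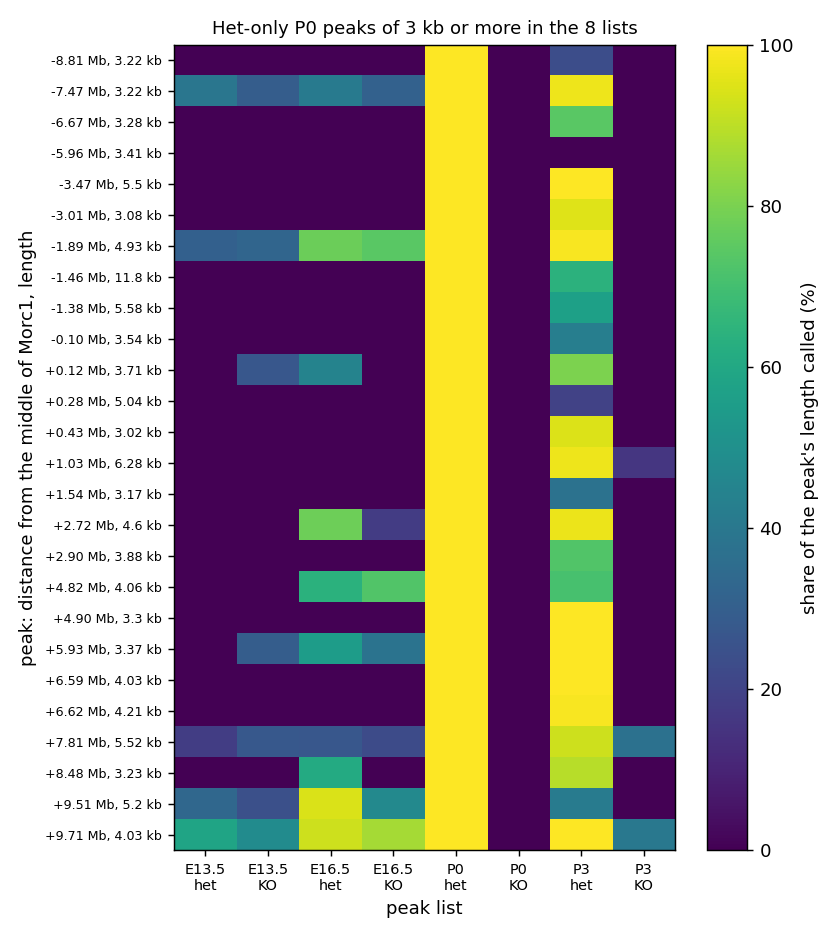
The 26 het-only P0 peaks of 3 kb or more, ordered by their distance in Mb from the middle of Morc1 and labelled with their length in kb, against the 8 peak lists, with colour giving the share of the peak's length called in each list in percent. At P3, 22 of them met only het peaks (84.6%, against 74.6% of such peaks on the other autosomes). At E16.5, 16 met no peak in either list (61.5% against 51.1%).

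After birth the longest KO-only peaks were shorter than the longest het-only ones. At P0 it was a 3.72 kb peak between Zpld1 and Nfkbiz (chr16:55605636-55609359) that no other list called. At P3 it was a 4.56 kb peak in Zbtb20, a zinc finger transcription factor gene (chr16:43280175-43284731), of which 2.16 kb were called in KO and 1.82 kb in het on P0. At E13.5 a 4.26 kb peak between Alcam and Zpld1 (chr16:53175575-53179838) was called whole in all 6 lists of the later stages, in het too. At E16.5 the longest KO-only peak measured 2.89 kb (chr16:54045003-54047888) and the longest het-only peak 3.03 kb in Lsamp (chr16:41295652-41298682), and neither was called in any other list. At E13.5 the longest het-only peak was 1.62 kb (chr16:47049352-47050974), and all later lists called it whole.

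Recurrence was counted in bins of 1 kb, with a bin taken as called once peaks filled 50% of it or more. Bins called in the same genotype only at all 4 stages were counted first. The region held 1 such het-only bin, or 0.0476 per Mb, where 0.00270% of autosomal bins were het-only at all 4 stages and the other autosomes held 0.0269 per Mb. It held 0 KO-only bins, which allows up to 0.143 per Mb, where 0.00146% of autosomal bins were and the other autosomes held 0.0147 per Mb. The single het-only bin lay inside Morc1 itself (chr16:48498001-48499000).

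At 3 stages or more, with no opposite call, 26 bins were het-only (1.24 per Mb, against 1.28 on the rest of chromosome 16 and 0.935 on the other autosomes, background 0.0949% of autosomal bins). In KO 7 bins were (0.333 per Mb, against 0.757 and 0.617, background 0.0619%). The het-only bins formed 22 runs and the KO-only bins 7, none longer than 2 kb. Apart from the bin in Morc1, the longest het-only runs measured 2 kb and lay between Ccdc54 and Cblb (chr16:51249001-51251000), between Lnp1 and Tmem45a2 (chr16:57014001-57016000) and between Nectin3 and Gm52257 (chr16:47199001-47201000). The first of these was called whole in het at E16.5, P0 and P3 and in no KO list. The last met KO peaks over 1.60 kb at E13.5, where het had 1.82 kb, and over 0.408 kb at E16.5. Among the KO-only runs, 1 lay in Cd96, a receptor gene of natural killer and T cells (chr16:46099001-46100000), and was called in KO at E13.5, P0 and P3 and in no het list. A het-only run of 1 kb lay in Lsamp (chr16:41062001-41063000) and met a KO peak over 0.332 kb at E16.5. The other KO-only runs named by the rule lay between Tigit and Drd3, starting at 43678001, 43718001 and 43732001, and between Nectin3 and Gm52257, starting at 47807001, and each of them met het peaks in at least 1 list.

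Over the postnatal stages the balance of recurrent bins in the region leaned to het. These are the stages at which its het-only share was highest, so the count is not independent of those shares. At both P0 and P3, 227 bins were het-only (10.8 per Mb) and 92 were KO-only (4.38 per Mb), a ratio of 2.47. Over the autosomes 0.770% of bins were het-only at both stages and 0.648% KO-only, and outside chromosome 16 the densities were 7.63 and 6.47 per Mb, a ratio of 1.18. On the rest of chromosome 16 the ratio was 1.19, which joined 2 unlike windows. The one from 66 to 87 Mb had 339 het-only and 159 KO-only bins, a ratio of 2.13, and the one from 3 to 24 Mb had 126 and 176, a ratio of 0.716. In the 103 other windows of 21 Mb the ratio ran from 0.327 to 2.30 with a median of 1.18, so none was above the region. Both sides contributed: 22 windows had more het-only bins (range 33 to 360, median 154) and 97 had more KO-only bins (range 69 to 226, median 136). Another 16 bins went from het-only on P0 to KO-only on P3 and 12 the other way. Bins of 1 genotype at both stages thus kept their direction in 91.9% of cases in the region, and in 88.1% on the other autosomes.

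**Figure D3:**
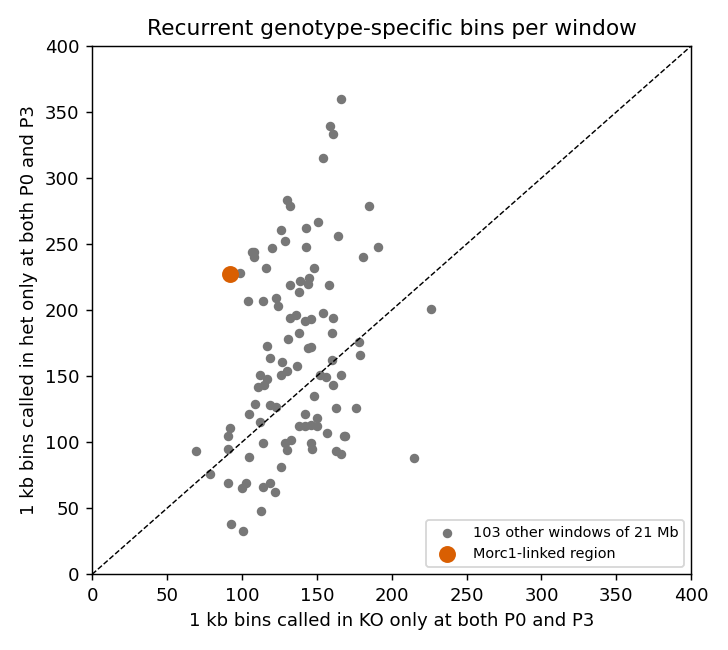
Number of 1 kb bins called in KO only (horizontal) and in het only (vertical) at both P0 and P3, in the Morc1-linked region and in 103 other autosomal windows of 21 Mb, with a dashed line where both are equal. The region, with 92 and 227 bins, has the highest ratio of het-only to KO-only bins.

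Within the region the het-only share on P0 and P3 was highest in the megabase that holds Morc1 (48 to 49 Mb). There, 15 of 45 het peaks were het-only on P0 (33.3%, 21.4 to 47.9) and 11 of 37 on P3 (29.7%, 17.5 to 45.8). Of other autosomal 1 Mb bins with at least 20 peaks, 9 of 2089 had a higher share on P0 (median 10.4%) and 65 of 2103 on P3 (median 13.0%). At E13.5 the share was 25.0% (6 of 24), and 42 of 1071 other bins were above it (median 9.52%). At E16.5 it was 15.4% (6 of 39), with 690 of 1911 above (median 12.5%). KO-only peaks were 3 of 32 on P0 (9.38%) and 2 of 28 on P3 (7.14%) in the same megabase, where the medians of other bins were 19.8% and 20.7%. At E13.5 they were 7 of 26 (26.9%), against 21.4% of the whole KO list, and 380 of 1366 other bins were above. The KO-only share was thus not low at that stage, unlike on P0 and P3. At E16.5 they were 0 of 33, a share with a 95% Wilson upper bound of 10.4%, where the median of other bins was 5.88%.

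The covered length in this megabase was 72.3 kb in the het list and 71.3 kb in the KO list of E13.5, then 123 and 113 kb at E16.5, 183 and 146 kb on P0, and 156 and 134 kb on P3. Its KO to het ratio on P0 was 0.797, and 50 of 2021 other megabases with at least 50 kb in het had a lower one (median 1.06). At P3 it was 0.863, with 76 of 2092 lower (median 1.11). Of the bins that were 1 genotype's only at both P0 and P3, this megabase held 23 het-only and 0 KO-only. Without it the region had 204 and 92, a ratio of 2.22, which 4 of the 103 windows exceeded. The P0 het-only difference from the other autosomes was 4.16 points (1.63 to 7.06) without this megabase, so it was not carried by that megabase alone. The P3 difference, whose interval included 0 in the full region, was 1.63 points (-1.01 to 4.70) without it.

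**Figure D4:**
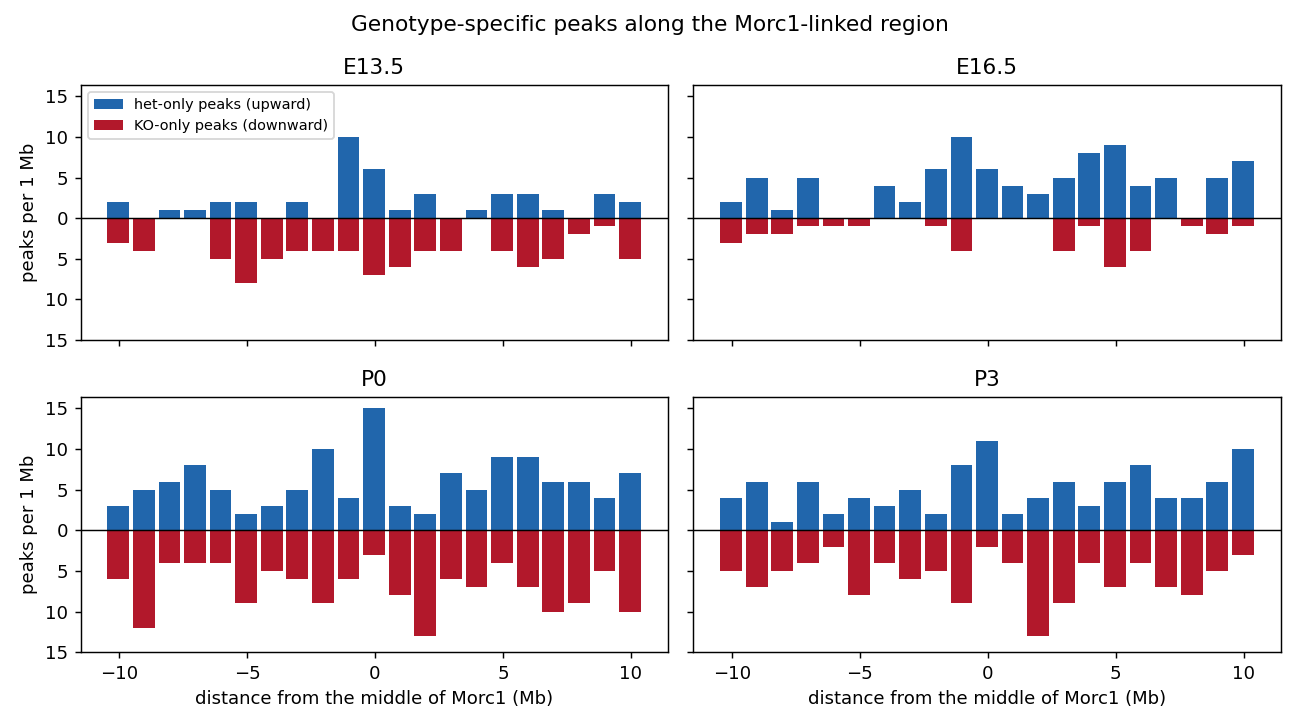
Het-only peaks (upward, blue) and KO-only peaks (downward, red) per 1 Mb along the region at the 4 stages, against the distance in Mb from the middle of Morc1. At P0 and P3 the tallest blue bars, 15 and 11 peaks, are those of the megabase that holds Morc1, with 3 and 2 KO-only peaks below them.

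In most other megabases KO-only peaks outnumbered het-only ones on P0 and P3. Over the whole region there were 147 KO-only against 124 het-only peaks on P0, and 121 against 105 on P3. KO-only peaks were the more numerous in the whole lists too. There 19.4% of KO and 12.0% of het peaks were unmatched on P0, and 20.7% and 13.9% on P3. From 50 to 51 Mb, 13 of 43 KO peaks were KO-only on P0 and 13 of 30 on P3, with 2 of 33 and 4 of 21 het peaks het-only. From 39 to 40 Mb, 12 of 41 KO peaks were KO-only on P0 and 7 of 29 on P3. Of its het peaks, 5 of 34 and 6 of 28 were het-only. From 47 to 48 Mb, next to Morc1 and without any protein-coding gene, het-only peaks were 10 of 53 at E13.5 and 4 of 64 on P0. KO-only peaks were 4 of 45 and 6 of 69. The whole E13.5 lists had 11.3% of het peaks and 21.4% of KO peaks unmatched. On P0 both shares of this megabase lay below those of the whole lists. Its covered length was greater for KO at E13.5 (229 kb, het 195 kb) but greater for het on P0 (420 kb, KO 397 kb). Counts and covered length thus went opposite ways, and no change of direction was shown. Het-only and KO-only peaks were thus found over the whole region.

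Morc1 itself (chr16:48431237-48630905) spans 200 kb and held few peaks, which never coincided between the genotypes. In het, peaks covered 2 kb of its body at E13.5, then 1.62 kb at E16.5, 3.47 kb on P0 and 3.21 kb on P3. In KO they covered 1.56, 0, 0 and 1.00 kb. All 7 het peaks in the body, which were 2 places counted anew at each stage, were het-only, and both of the 2 KO peaks were KO-only. With 50 kb on each side added, 15 of 18 het peaks were het-only and 3 of 6 KO peaks KO-only, again summed over the stages. In the whole lists the het-only share ran from 11.3% to 13.9% over the stages and the KO-only share from 6.94% to 21.4%.

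The het calls in Morc1 came back to 2 places. At chr16:48497864-48500411, inside the gene, het peaks of 1001, 1617, 2470 and 2213 bp were called in the order of the 4 stages, and no KO list had a call. At chr16:48462451-48463553, het peaks of 1001 bp were called at E13.5, P0 and P3, again with no KO call. The KO calls did not recur: a peak of 1564 bp at E13.5 toward the end with the higher coordinate (chr16:48614548-48616111) and one of 1001 bp on P3 just inside the end with the lower coordinate (chr16:48431779-48432779). Whether the mutant allele lacks any of this sequence was not tested, since its structure is not given in the sources used here. Every het animal carried 1 wild-type Morc1 allele, and the KO animals carried none.

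Outside the gene body, between Dppa2 and Morc1, a peak of 3545 bp on P0 and 1510 bp on P3 was het-only (chr16:48424611-48428155), and close to it 1 of 1001 bp at both stages (chr16:48419970-48421095). Between Morc1 and Trat1, het peaks of 1658, 3707 and 2981 bp at E16.5, P0 and P3 stood against a single KO peak of 1001 bp at E13.5 (chr16:48652816-48656522). A site farther before the gene was called in both genotypes at E16.5 and P0 (chr16:48396512-48398509). Within 100 kb of the gene the covered length was 20.5 kb in het and 6.98 kb in KO on P0, and 14.8 and 5.84 kb on P3. At E16.5 it was 12.1 and 7.07 kb, and at E13.5 KO had more, 6.85 kb against 4.06 kb. Within 250 kb it was 26.7 and 28.0 kb, 48.7 and 39.1 kb, 89.5 and 63.5 kb, and 72.6 and 55.7 kb in het and KO at the 4 stages. Het had more than KO from E16.5 on at each of these widths.

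**Figure D5:**
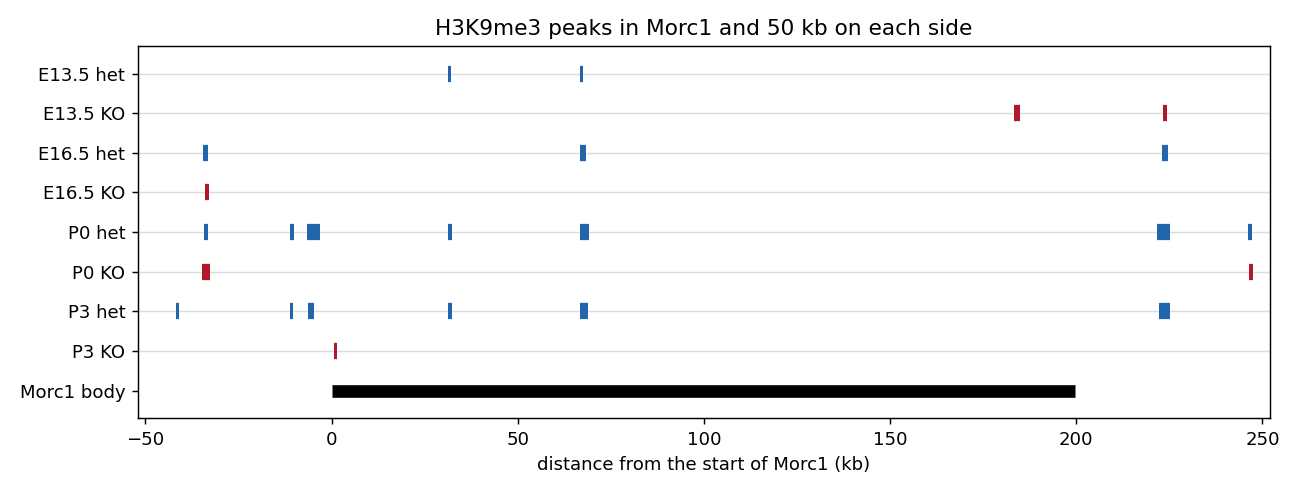
H3K9me3 peaks of the 8 lists in Morc1 and 50 kb on each side, het in blue and KO in red, against the distance in kb from the start of Morc1, with the gene body as the black bar. The het lists share calls near 67 kb at all 4 stages, where the KO lists have none.

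Genes of the region were compared by the length of the gene body under peaks. Of 115 protein-coding genes 85 met a peak in at least 1 list (73.9%, where 54.2% of all protein-coding genes did) and 30 in none. At E13.5 the length was greater in het for 17.4% of genes (20) and in KO for 25.2% (29), where over all genes it was 9.76% and 23.4%. At E16.5 the shares were 33.0% (38) and 11.3% (13) against 20.1% and 10.6%. At P0 they were 14.8% (17) and 43.5% (50) against 7.92% and 30.4%, and on P3 19.1% (22) and 44.3% (51) against 11.9% and 29.0%. On P0, 43 of the 115 genes had no call in either list, against 13037 of all 21887, and on P3 39 against 12502. A larger part of its genes than of all genes thus had a call, so both its shares could be higher. On P0 and P3 more genes had the greater length in KO, as over all genes, although the unmatched bins leaned to het.

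In 4 of the 115 genes (3.48%, where 0.599% of all genes did so) het had the greater length at all 4 stages: Morc1, Trat1, Zpld1 and Alcam. Trat1, the next gene after Morc1, had 1.65 kb in the het list and 1.47 kb in the KO list of E13.5, then 7.12 and 5.49 kb at E16.5, 15.9 and 8.76 kb on P0, and 11.1 and 5.92 kb on P3. Its difference was largest after birth. Alcam, an adhesion molecule of leukocytes and neurons, had 4.02 and 3.89, 7.73 and 4.69, 10.7 and 8.32, and 7.53 and 5.59 kb. Zpld1, a zona pellucida domain protein, had 2.42 and 2.07, 7.68 and 6.06, 10.9 and 10.1, and 9.26 and 8.92 kb, so its genotypes were close on P0 and P3.

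In 6 genes (5.22%, where 2.93% of all genes did so) KO had the greater length at all 4 stages: Igsf11, Cd200r2, Cd96, Arhgap31, Adgrg7 and Abi3bp. Igsf11, an immunoglobulin adhesion molecule, had 3.67 kb in the het list and 5.75 kb in the KO list of E13.5, then 2.27 and 4.31 kb at E16.5, 3.71 and 6.37 kb on P0, and 11.6 and 11.8 kb on P3. Its genotypes differed least on P3. Cd96 had 1.26 and 2.52, 3.02 and 3.44, 5.19 and 5.48, and 4.33 and 6.99 kb. Arhgap31, a GTPase-activating protein, had 1.30 and 2.24, 3.34 and 4.12, 2.0 and 2.53, and 6.76 and 7.26 kb. Cd200r2 had 0.265 and 0.753, 5.88 and 6.17, 6.67 and 7.50, and 4.74 and 5.19 kb. Adgrg7, an adhesion G protein-coupled receptor, had 2.26 and 2.60, 2.30 and 2.41, and 1.89 and 2.69 kb up to P0, and 2.41 and 7.23 kb on P3, when a KO-only peak of 3 kb lay over the end that holds the promoter printed above (chr16:56793114-56796116). Abi3bp had 1.53 and 1.92, 1.86 and 1.87, 2.25 and 5.33, and 2.37 and 3.30 kb, and at E16.5 its genotypes differed by 2 bp.

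The largest called lengths belonged to large genes and to Olfr183. Lsamp, a neuronal adhesion gene of 2197 kb, had 49.6 kb in the het list and 48.1 kb in the KO list of E13.5, then 132 and 117 kb at E16.5, 166 and 160 kb on P0, and 148 and 157 kb on P3. Zbtb20 had 13.4 and 19.2, 28.7 and 25.1, 43.5 and 50.3, and 36.1 and 46.4 kb. Olfr183 had 37.6 and 41.1, 50.2 and 48.7, 42.2 and 40.6, and 31.8 and 30.6 kb. The genotypes changed places between stages in all 3. The next in mean length were Gm609 (14.7 kb), Cmss1 (11.3 kb), the muscle myosin gene Myh15 (11.3 kb), Gm52229 within the span of Lsamp (11.1 kb), Sidt1 (9.29 kb), the SUMO protease gene Senp7 (7.38 kb) and Filip1l within the span of Cmss1 (7.24 kb). Myh15 had 11.9 kb in het and 17.7 kb in KO on P0, and 9.69 and 16.2 kb on P3.

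Genes of germ cells and pluripotency around Morc1 were 5 in number, of which 3 met a peak. Dppa2 and Dppa4, which activate early embryonic genes and lie before Morc1, met none in any list. Dzip3 had 1.00 kb in both genotypes at E13.5, none at E16.5, and 3.02 and 2.92 kb in het with 0 in KO on P0 and P3. Cip2a had 0.145 kb in KO on P3. Over the 5 genes peaks covered 3 kb in the het list and 2.56 kb in the KO list of E13.5, then 1.62 and 0 kb at E16.5, 6.49 and 0 kb on P0, and 6.13 and 1.15 kb on P3. Those lengths came almost wholly from Morc1 and Dzip3.

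In the gene lists, members that met a peak are to be read against the 73.9% of the region. All 8 genes of the neural adhesion list met a peak, with 2 greater in het at all stages (Alcam, Zpld1) and 1 in KO (Igsf11). Gap43, a growth cone protein gene, had 2.54 kb in het on P0 and 0 in the other 7 lists. Nectin3 had between 4.51 and 7.15 kb in every list. The immune receptor list held 12 genes, among them Trat1 and Cblb, which do not encode receptors. Of the 12, 10 met a peak, 1 greater in het throughout (Trat1) and 2 in KO (Cd96, Cd200r2), and Cd200 and Tigit met none. Cd200r3 had 1.90 and 1.27 kb on P0, and 3.73 and 1.64 kb on P3, in het and KO. Cblb, a ubiquitin ligase gene of T cells, had 4.64 and 6.76 kb on P0, and 4.04 and 7.88 kb on P3.

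Of 3 resistin-like genes, which encode small secreted proteins, Retnla alone met a peak, with 0.687 kb in het on P0. Of 5 transcription regulators Zbtb20, Bbx and Nr1i2 met peaks and Nfkbiz and Zbtb11 met none. All 3 had the greater length in het at E16.5 and in KO on P0 and P3. Bbx had 10.3 and 12.7 kb on P0, and 8.29 and 12.3 kb on P3. Of 8 olfactory receptor genes 6 met a peak, with a summed length of 49.7 and 52.7 kb at E13.5, then 63.8 and 62.2 kb at E16.5, 53.0 and 51.5 kb on P0, and 40.0 and 41.3 kb on P3. Olfr175 and Olfr178 lay wholly under peaks in all 8 lists. No olfactory receptor gene and no transcription regulator of the list kept 1 direction at all 4 stages.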

How the data were processed

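H3K9me3 was measured by ChIP-seq in 16 samples, 2 per genotype and stage, and the matching 16 histone H3 samples were not analysed here. The authors deposited 1 list per genotype and stage with the chromosome, start and end of each peak, and no score, signal or replicate. Each list was matched to its group by the stage and genotype in its name and taken as 1 pooled call set. Labels do not say whether the samples of a group came from separate animals. Per the submitters' processing notes the build was mm10 and the tools were bcl2fastq 2.20, cutadapt 1.18, Bowtie2 2.3.4.1, deepTools 3.5.0 and HOMER 4.10, with roles not given. Caller settings, the use of the H3 samples and read depth are not given in the sources used here. Peak number and length depend on all of them.

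Positions were compared with Python 3.11.15, numpy 2.4.6 and pandas 2.3.3 and drawn with matplotlib 3.10.9. A peak without 1 bp in common with the other genotype's list of its stage was het-only or KO-only. Shares have 95% Wilson intervals and their differences 95% Newcombe intervals, and for a count of 0 bins the limit is 3 counts. Windows of 21 Mb and bins of 1 kb (called at 50% cover) are descriptions. Genes and promoters came from the RefSeq table of GRCm38.p6, the assembly of mm10. Named genes were Morc1 and its neighbours, the 10 with most called length, up to 5 per direction alike at all 4 stages (all 6 of the KO side are listed), and members of 6 gene lists. Named peaks were the longest, the longest of 1 genotype, those in Morc1 and the longest recurrent runs. The other long het-only peaks and the single megabases were picked after their values were seen. The planned count of recurrent bins was that at all 4 stages, and the count at both P0 and P3 was added to it. Members and lists were chosen with earlier results of these data known. The overlap functions were tested on simulated data.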

Additional observations from a re-analysis of the deposited data

Results flagged for a closer look

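The KO to het ratio of covered length in the Morc1-linked region did not stay on 1 side of 1 over the stages. It was 1.13 at E13.5, 0.920 at E16.5, 0.972 on P0 and 1.04 on P3, so KO covered more at E13.5 and P3 and het covered more at E16.5 and P0. Each value comes from 1 list per genotype, and the difference between stages was not tested. On the other autosomes the ratio was 1.14, 0.918, 1.05 and 1.09, so P0 was the stage at which the region and the other autosomes lay on opposite sides of 1.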

How the results depend on the processing

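No paired analysis was possible because the lists carry no replicate, and for the same reason no replicate could be left out. Of 40 alternatives for the het-only differences, 38 stayed within the interval of the reported value, as did 37 of 40 for the KO-only differences. Of 24 alternatives for the relative covered length, 22 moved it by no more than the SD of the 18 other autosomes. Of 6 for the bins called at all 4 stages, 5 were within 1.5 times the reported count, as were 6 of 6 for the bins called at both P0 and P3. A direction was called only where the reported interval left out 0 or the ratio lay outside the range of the 18 other autosomes. That held for the P0 het-only difference and the P0 and P3 ratios, and no alternative reversed these. Other differences could change sign, as the het-only one at E16.5 did from 0.593 to -2.47 points inside gene bodies. The P0 het-only difference had an interval above 0 in 10 of 10 alternatives, and the KO-only intervals left out 0 in 2 of 40. With 2 Mb on each side of Morc1 the het-only difference at E13.5 was 5.25 points and the KO-only difference at E16.5 -3.71 points. Inside gene bodies the differences at E16.5 were -2.47 points for het-only and -4.03 points for KO-only peaks. Among peaks longer than the most common length the P0 KO-only difference was -3.74 points (-6.36 to -0.708), the E13.5 KO-only difference -4.41 points (-8.00 to -0.0458), and the P3 het-only difference 3.27 points (0.446 to 6.56). The relative covered length was 1.01 at E13.5 with 5 Mb on each side and 0.984 at E16.5 against the rest of chromosome 16. When the whole bin had to lie in a peak, 0 bins were het-only at all 4 stages. The causes were not tested. The splits by gene body and the omission of the Morc1 megabase were chosen after the data had been seen. Read depth is unknown, so what it limits could not be stated beyond counting error.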
